A study of Mus musculus with 7 samples.

Results

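The genes described here are 37 stress response and chaperone genes, chosen by symbol from the 48795 gene rows of a count table. They fall into 10 genes of the ATF4 branch of the integrated stress response, 12 endoplasmic reticulum (ER) stress and chaperone genes and 15 heat shock genes of the cytosol and mitochondria. All 37 had a row in the table. RNA was sequenced from primary mouse oligodendrocyte precursor cells (OPCs), the dividing glial cells from which myelinating oligodendrocytes arise. The cells were taken from wild-type CD-1 pups at postnatal days 4 to 7, with equal sexes. The 3 PE libraries, numbered 2 to 4, came from cells given 20 µM phenylephrine, an agonist of α1-adrenergic receptors, for 1 hour, and the 4 control libraries, numbered 1 to 4, came from cells given no treatment. Control 1 had no treated partner, so every change below was measured within the 3 pairs that share a replicate number.

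The libraries held 12837463 to 17962339 counts, with a count in 22202 to 23154 genes each. All 8 OPC markers examined, among them Pdgfra, Cspg4 and Sox10, reached 1 CPM (the usual scaling of counts by library size, here with the TMM factors of edgeR) in at least 1 library. The same was true of every marker of the other cell types examined, save the endothelial marker Cldn5. Reaching 1 CPM therefore does not set OPCs apart. No marker of any cell type was at 0 in all libraries. The markers of committed oligodendrocytes differed strongly between replicate numbers, as described further on. Nothing in the sources used here says that replicates were separate cultures. The p-values within pairs rest on the spread left once replicate numbers are allowed for, and that spread may be technical.

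Cells meet misfolded protein with 3 linked programs. In the integrated stress response, kinases that phosphorylate the initiation factor eIF2 lower general translation while raising translation of the transcription factor ATF4, which switches on genes for amino acid supply and, under long stress, for cell death. In the unfolded protein response, the ER sensors IRE1, PERK and ATF6 raise ER chaperones, and IRE1 splices the Xbp1 messenger. In the heat shock response, the factor HSF1 raises cytosolic chaperones of the HSP70, HSP90 and HSP40 families. Oligodendrocytes make large amounts of membrane and are known to be sensitive to disturbance of ER folding.

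Short promoter elements that these factors are known to bind were searched for, and copies from ER and heat shock genes are printed below. Windows of 250 bases before to 50 bases after the start were taken from RefSeq (GRCm38.p6), and 33 of the 37 genes had at least 1 window. A gene was counted if any of its windows held the element, while the percentages are per window. On both strands, the ER stress element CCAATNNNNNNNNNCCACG was found in 5 of 11 ER genes with a window, in 0 of 10 ATF4 genes, in 0 of 12 heat shock genes and in 0.119% of all 32851 windows. Read 5′ to 3′ on its own strand, with the fixed letters in capitals, its 6 copies were as follows.
Hspa5: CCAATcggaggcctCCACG
Pdia6: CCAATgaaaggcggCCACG
Dnajc3: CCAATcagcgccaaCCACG
Creld2: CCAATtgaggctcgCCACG
Hsp90b1, nearer copy: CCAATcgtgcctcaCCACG
Hsp90b1, farther copy: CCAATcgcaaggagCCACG
The copies lay at chr2:34772025-34772043 in Hspa5, chr12:17266491-17266509 in Pdia6 and chr14:118937827-118937845 in Dnajc3, each on the gene's strand. That of Creld2 lay at chr15:88819520-88819538 on the opposite strand. The pair in Hsp90b1 lay at chr10:86705533-86705551 on the opposite strand and at chr10:86705638-86705656 on the gene's strand.

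A heat shock element of 3 units, GAANNTTCNNGAA or TTCNNGAANNTTC, was found in 4 of 12 heat shock genes (Chordc1, Hspd1, Hspe1 and Hsph1), in no gene of the other groups and in 0.603% of all windows. The element of 2 units, GAANNTTC or TTCNNGAA, which the longer form contains, was found in 10 of the 12, in 2 ATF4 genes (Asns and Atf5) and in 15.1% of all windows. The C/EBP-ATF element TGATGNAA was found in 3 of 10 ATF4 genes (Asns, Chac1 and Trib3), in the ER gene Herpud1 and in 3.97% of windows. The cAMP response element TGACGTCA was found in Ppp1r15a alone among these genes and in 1.79% of windows. A match is a run of letters and does not show binding.

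Hspd1 and Hspe1, which encode the mitochondrial chaperonin HSP60 and its lid HSP10, are transcribed away from each other, and both windows hold the same heat shock element at chr1:55088059-55088076. The Hspe1 window, chr1:55087898-55088197 on the + strand, is printed with this element in capitals.
Hspe1: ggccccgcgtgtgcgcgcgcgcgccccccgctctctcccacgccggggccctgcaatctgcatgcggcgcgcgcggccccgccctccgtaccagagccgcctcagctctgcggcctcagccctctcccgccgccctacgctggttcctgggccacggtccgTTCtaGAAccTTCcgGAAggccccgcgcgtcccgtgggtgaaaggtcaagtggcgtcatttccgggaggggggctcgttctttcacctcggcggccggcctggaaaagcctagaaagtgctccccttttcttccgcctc

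The Hspa5 window, chr2:34771840-34772139 on the + strand, is printed for the main ER chaperone, with its ER stress element in capitals.
Hspa5: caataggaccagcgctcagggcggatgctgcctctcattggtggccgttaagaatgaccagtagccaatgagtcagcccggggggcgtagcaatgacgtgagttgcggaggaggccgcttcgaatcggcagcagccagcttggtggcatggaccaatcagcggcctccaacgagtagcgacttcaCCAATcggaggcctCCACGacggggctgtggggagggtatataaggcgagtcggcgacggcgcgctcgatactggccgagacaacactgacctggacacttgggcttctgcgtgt

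The Bag3 window, chr7:128523333-128523632 on the + strand, is printed because Bag3 was the member that passed the test after PE. Its capitals mark a heat shock element of 2 units that begins 42 bases after the RefSeq start.
Bag3: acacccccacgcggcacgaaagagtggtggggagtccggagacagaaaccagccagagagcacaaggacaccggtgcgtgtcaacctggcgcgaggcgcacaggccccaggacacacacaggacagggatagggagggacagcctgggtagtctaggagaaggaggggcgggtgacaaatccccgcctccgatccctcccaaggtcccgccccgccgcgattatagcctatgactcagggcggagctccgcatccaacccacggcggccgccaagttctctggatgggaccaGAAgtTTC

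In control cells the levels of the 37 genes spread widely, with Hsp90ab1 at the top and, by the RPKM defined below, Hspa1b, Hspa1a and Hspb1 at the bottom. Level did not follow inducibility throughout, as an inducible HSP90 gene ranked above a constitutive HSP70 gene. Hsp90aa1, the inducible HSP90, had rank 7 and Hspa8, the constitutive cytosolic HSP70, had rank 19 of the 37. Both share much sequence with other genes, and on the unshared sequence described below their ranks were 3 and 7. Levels between genes are given as RPKM, the CPM divided by the summed exon length in kilobases. The median of the 37 means was 19.9 RPKM, against 6.17 RPKM over the 15900 tested genes with a known length. The medians were 28.7 for the ER genes, 16.5 for the heat shock genes and 15.7 for the ATF4 genes. Hsp90ab1, the constitutive cytosolic HSP90, stood at the top with 737.1, 681.3, 902.0 and 1083.9 RPKM in controls 1 to 4. Its lowest library lay above the highest library of every other member. It was followed by the ER chaperones Hsp90b1 (GRP94, 217.5 ± 52.7 RPKM) and Hspa5 (BiP, 151.5 ± 18.0; SD, n = 4 each), whose libraries overlapped.

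**Figure D1:**
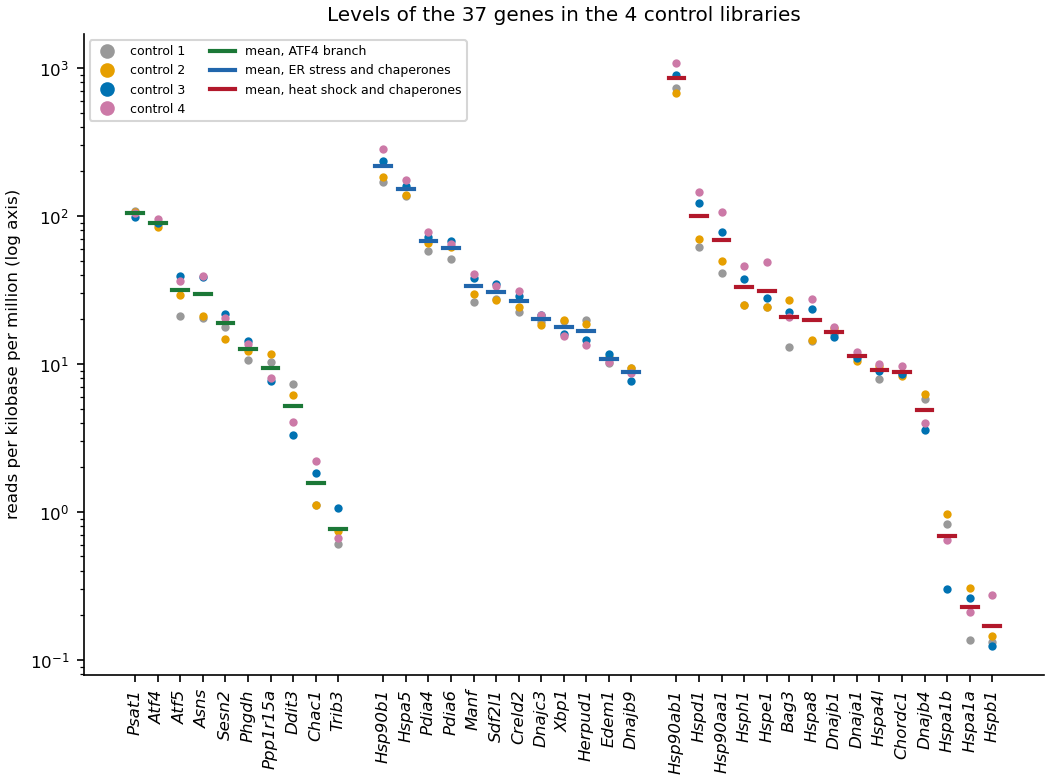
Level of each of the 37 genes in the 4 control libraries, in RPKM on a log axis. Points are libraries and bars are means; Hsp90ab1 lies highest, and Hspa1a, Hspa1b and Hspb1 lie lowest among the heat shock genes.

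Among the ATF4 genes, the serine synthesis enzyme gene Psat1 had 104.7 ± 4.10 RPKM and Atf4 itself 89.7 ± 4.39 RPKM. The genes linked to severe or lasting stress were lower. Ddit3, which encodes the pro-apoptotic factor CHOP, had 5.22 ± 1.85 RPKM, above 46.0% of tested genes. The glutathione-degrading enzyme gene Chac1 had 1.56 ± 0.544 RPKM and the pseudokinase gene Trib3 0.771 ± 0.204, above 23.2% and 14.0% of them. Lowest of all by RPKM were Hspa1b with 0.684 ± 0.288 RPKM, Hspa1a with 0.228 ± 0.0721 and the small heat shock protein gene Hspb1 with 0.169 ± 0.0704 (SD, n = 4 each). The libraries of Hspa1b (0.3 to 0.968 RPKM) overlapped those of Trib3 (0.608 to 1.07 RPKM). When the 37 genes were ranked by level, neighbours overlapped in their libraries in 29 of 36 steps, so most of the order was not resolved.

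Shared sequence bears on several of these levels. A read that fits more than 1 place may have been dropped or split in the counting. The share of 50-base windows of the longest coding transcript that also occur in transcripts of other annotated genes was 74.84% for Hspa8, the constitutive cytosolic HSP70, 66.31% for Hspa1a, 63.07% for the serine synthesis gene Phgdh, 62.31% for Hspa1b and 58.51% for Hsp90aa1. It was 51.65% for Hspb1, 44.83% for Hspe1, 44.78% for Hspd1 and 28.76% for Dnaja1. For 6 of these 9 genes the gene sharing the most windows was a pseudogene, while Hspa1a and Hspa1b shared most with each other. Their coding sequences differ at 8 aligned bases and by 3 gap bases (99.6% identity of aligned bases). Counted per kilobase of that transcript shared with no other gene, Hspa8 reached 142.3 RPKM in place of 19.9, and moved from rank 19 to rank 7. Hsp90aa1 reached 198.2 in place of 68.6 and Hspd1 197.2 in place of 99.9, and on this measure both stood above Hspa5 (174.5, rank 5), while Hsp90ab1 and Hsp90b1 kept the first and second place. At the low end Hspa1b reached 1.82 in place of 0.684, at rank 33, above Chac1 (1.56) and Trib3 (0.808). Bag3, Xbp1, Hspa5 and Atf4 shared no window with another gene. Even so, on this measure Xbp1 had 27.0 in place of 17.7 and Atf4 122.6 in place of 89.7, while Bag3 stayed at 20.8. The measure takes the longest coding transcript where the RPKM above takes all exons, and the 2 steps were not separated. Since the kit used keeps no strand information, reads from overlapping exons of different genes cannot be told apart, as in 608 exon bases of Dnaja1 (with Smu1), 564 of Hspa1a (with Gm20481, at 0 counts) and 415 of Hsp90b1 (with 1810014B01Rik). Shorter overlaps with well counted genes included 146 bases of Manf (with Dcaf1), 82 of Atf5 (with Nup62) and 68 of Ddit3 (with Mars).

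The reads behind the lowest genes were few. Hspa1a had 4, 6 and 18 reads counted in PE libraries 2 to 4 and 6, 12, 12 and 11 counts in controls 1 to 4. Hspb1 had 6, 5 and 3 counts in PE and 2, 2, 2 and 5 counts in control, and it was left out of the test by the filter on low counts. The PE libraries of Hspa1a overlapped those of control. The sum of Hspa1a and Hspa1b was 2.62 ± 0.521 CPM in PE (SD, n = 3) and 2.60 ± 0.826 CPM in control (n = 4). A count of 3 corresponds to between 0.167 and 0.234 CPM, taken on the unscaled library totals.

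After 1 hour of PE, 1 of the genes rose and none fell. Of the 36 members tested, Bag3 was called higher and 0 were called lower (edgeR quasi-likelihood test blocked by replicate number, Benjamini-Hochberg adjustment over 15934 genes, threshold 0.05). Over all tested genes 0.502% were called higher and 0.0377% lower, so a single call in 36 genes does not set the members apart. DESeq2 and limma-voom with the block also called 1 member each, and at an unadjusted p under 0.05 there were 4 members, 3 higher (Bag3, Xbp1 and Hspa5) and 1 lower (Sesn2), against 5.76% of all tested genes in either direction. The median log2 change over the 36 was 0.022, against -0.001 over all tested genes.

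Bag3 encodes a co-chaperone that binds HSP70 and HSPB8 and directs damaged proteins to autophagy. Bag3 had 83.8, 83.0 and 72.9 CPM in PE libraries 2 to 4, against 33.3, 69.5, 57.6 and 53 CPM in controls 1 to 4. Even the lowest PE library exceeded the highest control library, as in 0.684% of tested genes. No member had every PE library below every control, as 0.571% of tested genes did. Within pairs Bag3 rose 1.34-fold, with a log2 change of 0.42 ± 0.06 (SE) and a 95% interval of 0.29 to 0.54 (edgeR adjusted p = 0.00211). The log2 ratios were 0.27, 0.52 and 0.46 in pairs 2, 3 and 4. Control 1, the lowest library for Bag3, stands outside the pairs and does not enter this change, and without it the log2 change was again 0.42 (edgeR adjusted p = 0.00154). Without the block the log2 change was 0.58 and the call was lost (edgeR adjusted p = 1.00), as it was for every other gene called within pairs. In GRCm38 with GENCODE M21, Bag3 (ENSMUSG00000030847) lies at chr7:128523616-128546981, and no exon of another annotated gene overlaps its exons.

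**Figure D2:**
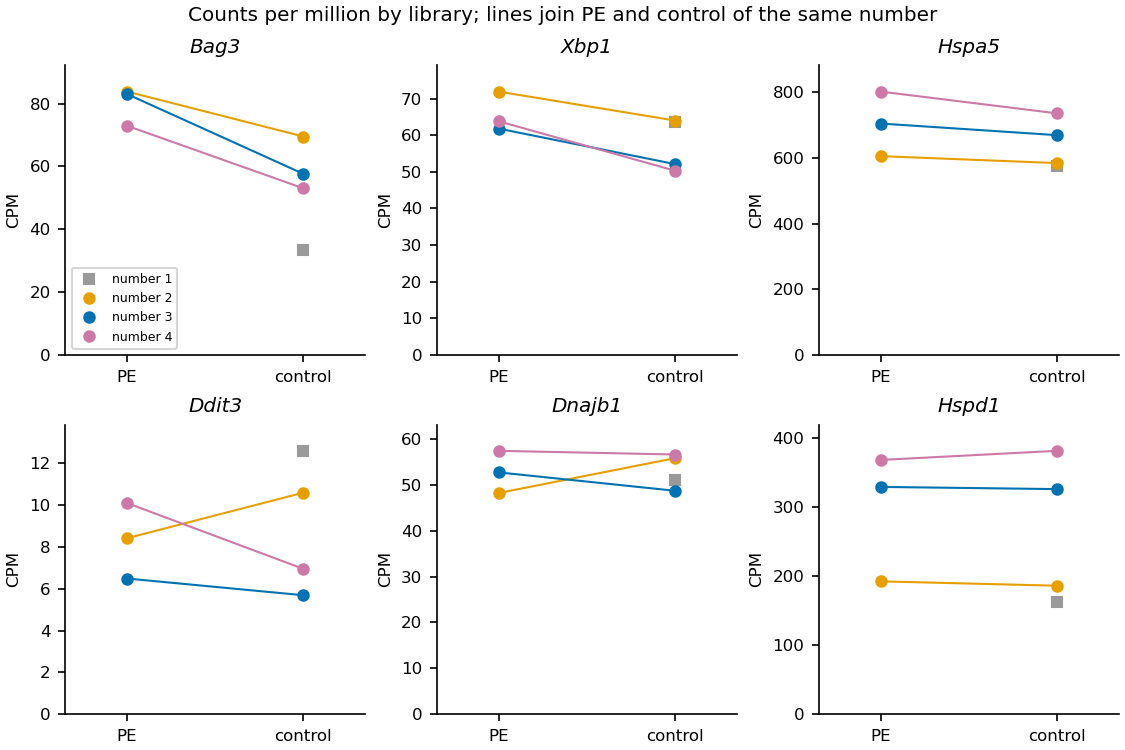
CPM of 6 members in each library, PE on the left and control on the right, with lines joining the libraries of a pair and a square for control 1. Bag3 and Xbp1 are higher in PE in each pair, while Ddit3 and Dnajb1 move in different directions between pairs and Hspd1 differs mainly between numbers.

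The partners of BAG3 were not called. Hspa8 had 59.2, 94.1 and 113.4 CPM in PE and 61.0, 62.5, 101.7 and 117.8 CPM in control, with a log2 change of -0.08 ± 0.05 (95% interval -0.18 to 0.02). Its groups overlapped, and numbers 3 and 4 were high in both. The small heat shock protein gene Hspb8, which is no member, had 26.7, 21.7 and 10.7 CPM in PE and 27.4, 21.2, 19.3 and 10.9 CPM in control (log2 change 0.18 ± 0.10, edgeR adjusted p = 0.914). The HSP40 genes Dnajb1 and Dnaja1, whose products load clients onto HSP70, had log2 changes of -0.02 ± 0.07 and 0.07 ± 0.05. Dnajb1 had 48.2, 52.7 and 57.4 CPM in PE and 51.0, 55.8, 48.7 and 56.6 CPM in control, with overlapping groups. Hsph1, a nucleotide exchange factor of HSP70, had 178.5, 274.0 and 331.9 CPM in PE and 182.2, 180.6, 270.7 and 331.3 CPM in control, with a log2 change of 0.00 ± 0.04.

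Of the 14 tested heat shock genes 1 rose, 0 fell and 13 did not pass, against 0.502% higher and 0.0377% lower over all tested genes. Their median log2 change was -0.007. The log2 changes of the 14 split evenly, 7 above 0 and 7 below. Besides Bag3, the mitochondrial and HSP90 genes lay close to 0. The log2 change was 0.00 ± 0.04 for Hspd1, 0.07 ± 0.06 for Hspe1, -0.03 ± 0.04 for Hsp90aa1, the inducible HSP90, and -0.03 ± 0.03 for Hsp90ab1. Hspa4l, a relative of Hsph1, was higher in all 3 pairs with 0.08 ± 0.05, while Chordc1, which encodes an HSP90 co-chaperone, had -0.05 ± 0.06 and the HSP40 gene Dnajb4 -0.01 ± 0.06. None of these passed. The heat-inducible HSP70 genes gave wide intervals, from -1.25 to 0.68 for Hspa1a and from -0.36 to 0.78 for Hspa1b, with 69 and 205 counts over all libraries.

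Of the 12 ER genes 0 passed, 11 had a log2 change above 0 and the median was 0.069. Over all tested genes 7854 of 15934 had a log2 change above 0. By pair the median log2 ratio was 0.034, 0.051 and 0.115 in pairs 2, 3 and 4. In this group 5 genes (Hspa5, Xbp1, Dnajb9, Pdia4 and Edem1) were higher in all 3 pairs and 0 were lower in all, against 11.9% and 13.5% of all tested genes. At an unadjusted p under 0.05 there were 2, Xbp1 and Hspa5, against 5.76% of all tested genes, and DESeq2 and limma-voom called 0.

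Xbp1 (chr11:5520659-5525893), the transcription factor gene whose spliced form drives ER chaperone genes, was nearest to the threshold. Xbp1 had 71.9, 61.8 and 63.8 CPM in PE libraries 2 to 4 and 63.5, 64.0, 52.1 and 50.3 CPM in controls 1 to 4. The groups overlapped, but each PE library lay above the control of its own number. The log2 change within pairs was 0.25 ± 0.06, or 1.19-fold, with a 95% interval of 0.13 to 0.38 (edgeR adjusted p = 0.0718). It passed with robust estimation (adjusted p = 0.0343), with no filter on low counts (0.0111) and without pair 2 (0.000305), and did not pass with DESeq2 (1.00), limma-voom (0.0711) or the other alternatives. Pair 2 had the lowest log2 ratio of Xbp1 (0.17), so leaving that pair out favours a call. Gene counts do not separate the spliced from the unspliced form.

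The ER chaperones had small log2 changes. Hspa5 had 605.4, 704.7 and 802.0 CPM in PE and 574.4, 584.2, 669.3 and 735.7 CPM in control, with a log2 change of 0.08 ± 0.04 (edgeR adjusted p = 0.820). Hsp90b1 had 732.5, 955.6 and 1163.1 CPM in PE and 680.2, 736.0, 946.4 and 1145.5 CPM in control, with a log2 change of 0.01 ± 0.03. In both genes the libraries of a number lay close together and the groups overlapped. The log2 change was 0.16 ± 0.08 for Dnajb9, a co-chaperone of BiP, 0.10 ± 0.08 for Herpud1, of the ER degradation pathway, and 0.10 ± 0.07 for Creld2. It was 0.07 ± 0.04 for the disulfide isomerase gene Pdia4, 0.07 ± 0.05 for Edem1, which takes part in the degradation of misfolded glycoproteins, and 0.06 ± 0.05 for the secreted factor gene Manf. The isomerase gene Pdia6, the BiP co-chaperone gene Dnajc3 and Sdf2l1 had 0.02 ± 0.04, 0.01 ± 0.05 and -0.01 ± 0.07, so none of these passed. Herpud1 differed between pairs, with log2 ratios of 0.31 in pair 2, 0.00 in pair 3 and -0.04 in pair 4.

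The 10 ATF4 genes had 0 members past the test, 5 changes above 0 and 5 below, and a median of 0.01. DESeq2 and limma-voom called 0, and 1 gene had an unadjusted p under 0.05. Atf4 had 186.5, 220.1 and 242.5 CPM in PE and 209.6, 200.2, 210.9 and 225.3 CPM in control (log2 change 0.02 ± 0.05). Since ATF4 is mainly set by translation, gene counts do not measure its protein. Ddit3 had 8.42, 6.49 and 10.1 CPM in PE and 12.6, 10.6, 5.69 and 6.95 CPM in control. Ddit3 was lower in PE in pair 2 and higher in pairs 3 and 4 (log2 ratios -0.32, 0.19 and 0.53), and its fitted change of 0.14 ± 0.16 did not pass.

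The amino acid genes of this branch had log2 changes near 0. Asns, for asparagine synthesis, had 58.9, 108.7 and 109.8 CPM in PE and 56.0, 57.4, 106.8 and 107.4 CPM in control, with a log2 change of 0.03 ± 0.05. Its libraries followed the replicate number and the groups overlapped. Psat1 and Phgdh had log2 changes of -0.03 ± 0.04 and 0.04 ± 0.07. Sesn2, which encodes a leucine sensor that restrains mTORC1, was lower in all 3 pairs, at 43.2, 69.8 and 67.4 CPM in PE and 62.1, 51.2, 76.3 and 71.3 CPM in control (log2 change -0.14 ± 0.06, edgeR adjusted p = 0.680). The transcription factor gene Atf5 had -0.08 ± 0.06 and Ppp1r15a, the subunit that directs dephosphorylation of eIF2, 0.06 ± 0.08. Chac1 and Trib3, at under 5 CPM in each library, had 0.00 ± 0.21 and -0.21 ± 0.28.

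**Figure D3:**
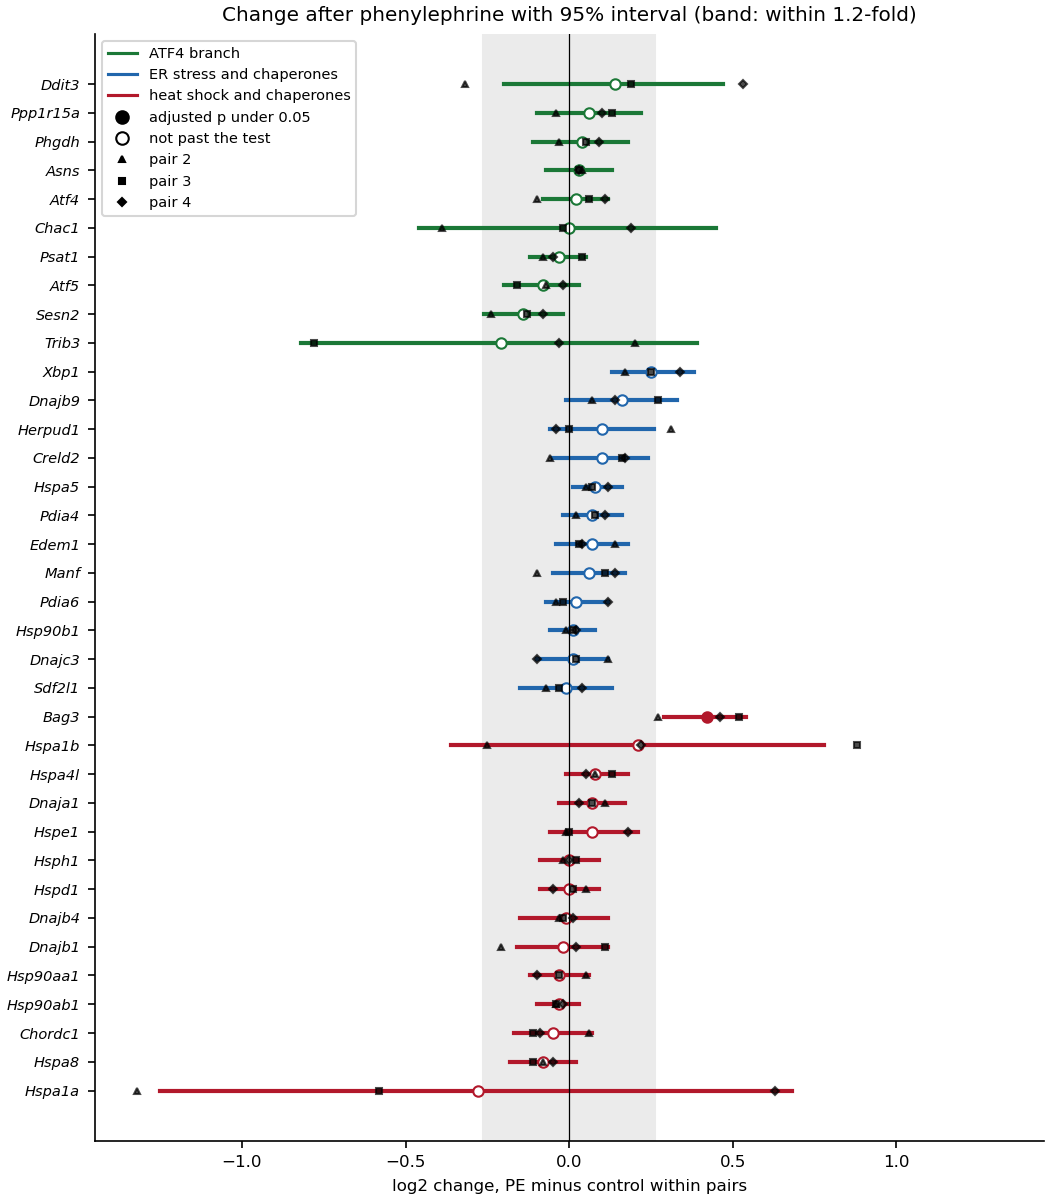
Log2 change of the 36 tested members, PE minus control within pairs, by group. Circles are fitted changes with 95% intervals, small symbols are the ratios of pairs 2, 3 and 4, and the grey band spans 1.2-fold either way; Bag3 alone is filled, as past the test, and Hspa1a, Hspa1b, Trib3, Chac1 and Ddit3 have the widest intervals.

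The intervals limit how large a missed change could be. For 27 of the 36 tested members the 95% interval, not adjusted for the number of genes, lay within 1.2-fold in both directions (log2 ±0.26), against 51.5% of all tested genes. This covered 10 of 12 ER genes, 11 of 14 heat shock genes and 6 of 10 ATF4 genes. Across all groups 9 members were higher in all 3 pairs and 4 were lower in all. The median SE of the log2 change was 0.055 over the members and 0.084 over all tested genes, and the members were also the more abundant.

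The larger differences lay between replicate numbers. Hspd1 had 192.2, 328.9 and 367.9 CPM in PE libraries 2 to 4 and 162.9, 185.9, 325.7 and 381.1 CPM in controls 1 to 4. The highest control was 2.34 times the lowest, while the PE change was 1.00-fold. Hsp90aa1 had 202.8, 298.3 and 388.6 CPM in PE and 160.9, 195.8, 304.6 and 417.7 CPM in control, so that the highest control was 2.60 times the lowest. Hspe1 was high in number 4 in both groups, with 35.2, 41.2 and 81.5 CPM in PE and 35.6, 35.5, 41.1 and 71.8 CPM in control. Hspd1 and Hspe1 share a promoter region and 112 exon bases, and the ratio of Hspe1 to Hspd1 counts ranged between 0.125 and 0.222 in PE and between 0.126 and 0.219 in control. It was lowest in number 3 in both groups.

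In 20 of 36 members all libraries of numbers 3 and 4 lay above all of numbers 1 and 2, and in 4 all lay below. Over all tested genes these shares were 26.4% and 25.2%. This split of the numbers was not among the planned comparisons, so the shares describe these libraries only. The 20 comprised 8 of 12 ER genes, 6 of 14 heat shock genes and 6 of 10 ATF4 genes, among them Hspa5, Hsp90b1, Hsp90ab1, Hspa8, Hsph1 and Asns. The 4 genes that went the other way were Ppp1r15a, Herpud1, Dnajb4 and Hspa1b, the last with 205 counts over all libraries. The median ratio of highest to lowest control was 1.88 for the heat shock genes, 1.64 for the ATF4 genes and 1.31 for the ER genes, against 1.55 over all tested genes.

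**Figure D4:**
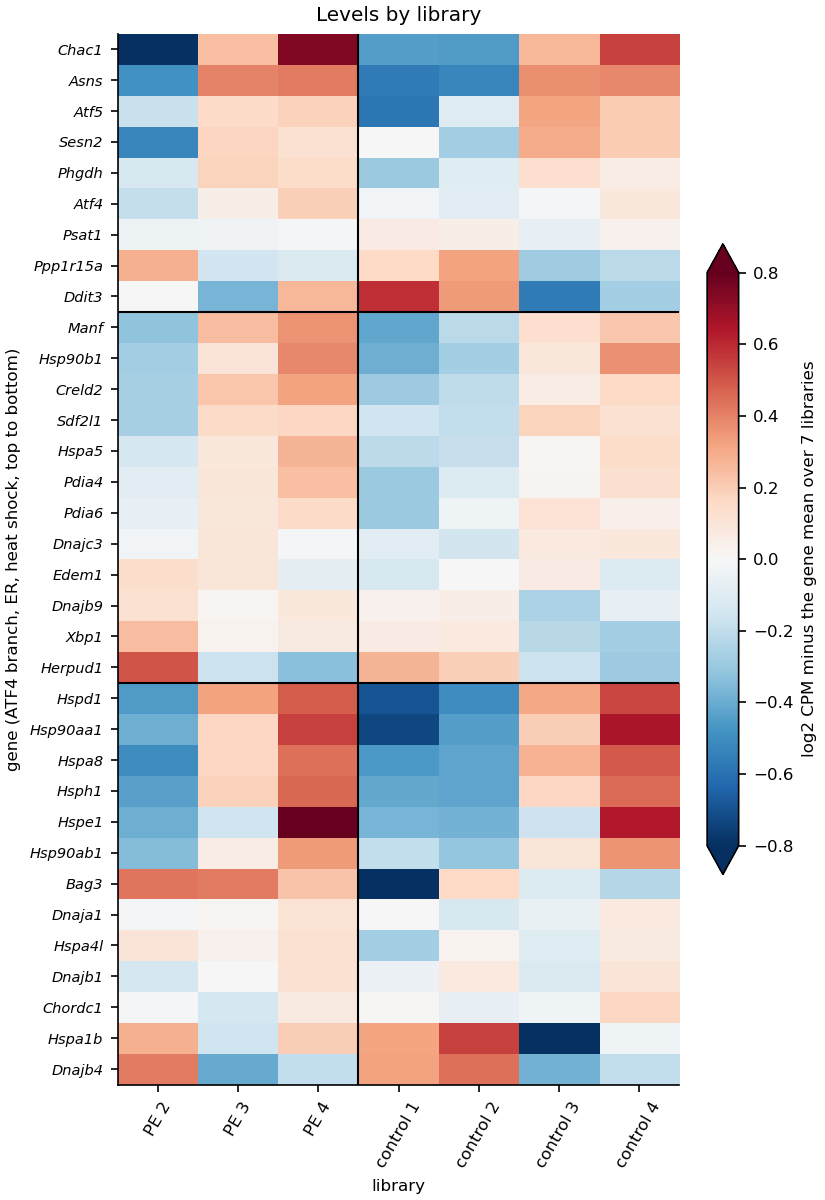
Log2 CPM of the 34 members with more than 200 counts in all, minus each gene's mean over the 7 libraries, PE libraries on the left and control libraries on the right, with colours ending at 0.8 in either direction. Many rows change colour between numbers 1 and 2 and numbers 3 and 4 in both groups, while Bag3 is higher in all PE libraries than in every control library.

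Cell type markers also differed between the numbers. The summed level of 5 committed oligodendrocyte markers was 5527.8, 2321.3 and 1697.8 CPM in PE libraries 2 to 4 and 7965.9, 5463.1, 2369.5 and 1692.8 CPM in controls 1 to 4. That of 8 OPC markers was 8319.0 to 9374.1 CPM in PE and 6923.7 to 9447.5 CPM in control. Markers of astrocytes (7 genes) summed to 1112.4 to 1543.8 CPM in PE and 956.5 to 1505.8 CPM in control, neuron markers (6, mostly Map2) to 952.5 to 1028.3 CPM in PE and 979.2 to 1028.2 CPM in control, and microglia markers (7) to 19.8 to 36.2 CPM in PE and 17.1 to 34.1 CPM in control. In each of these lists the PE and control libraries overlapped. The sums were 903.4 to 1405.8 CPM in PE and 882.0 to 1914.4 CPM in control for mature oligodendrocytes (6), and 59.5 to 138.6 CPM in PE and 63.9 to 136.7 CPM in control for mural cells and fibroblasts (6). They were 8.94 to 38.4 CPM in PE and 7.89 to 28.1 CPM in control for endothelium (4), whose marker Cldn5 was below 1 CPM in every library. Of all these markers 1, Olig2, was called lower and 0 were called higher, against 0.0377% and 0.502% of all tested genes. The part of cell composition in the differences between numbers was not tested, and fewer cells of a type and less RNA per cell cannot be told apart in bulk libraries.

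Other genes of the same pathways were read from lists set by role, chosen with earlier results of these data known. The share of a list that was called describes the list and is no test of it. Of 31 other ATF4 targets tested 3 rose and 0 fell, against 0.502% and 0.0377% of all tested genes, with a median log2 change of 0.009 against -0.001. Cebpb, a transcription factor that other pathways also induce, had 29.4, 22.2 and 23.5 CPM in PE and 16.9, 21, 11.1 and 11.0 CPM in control and rose by 0.85 ± 0.11 on the log2 scale (edgeR adjusted p = 0.00114). The cystine transporter gene Slc7a11 had 24.9, 48.7 and 20.2 CPM in PE and 14.4, 14.4, 34 and 16.2 CPM in control and rose by 0.53 ± 0.09 (edgeR adjusted p = 0.00881). The leucine transporter gene Slc7a5 had 178.3, 285.9 and 214.8 CPM in PE and 85.9, 151.4, 251.9 and 174.3 CPM in control and rose by 0.24 ± 0.04 (edgeR adjusted p = 0.0185). All PE libraries of Cebpb lay above its controls, while the groups of both transporters overlapped and each was higher in PE in all 3 pairs. Both transporters lost the call without pair 3 (adjusted p = 0.0722 and 0.120) and with DESeq2 (0.0992 and 0.158), while Cebpb kept it in both.

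No gene of the eIF2 machinery (13 tested), of 34 other ER folding genes or of 39 other heat shock factors and co-chaperones was called by edgeR, DESeq2 or limma-voom. At an unadjusted p under 0.05 there were 1, 3 and 2 of them, against 5.76% of all tested genes. Eif2ak3, the gene of the ER sensor kinase PERK, had 89.5, 85.5 and 80.7 CPM in PE and 71.8, 80.8, 74.1 and 70.1 CPM in control, with a log2 change of 0.19 ± 0.05 (edgeR adjusted p = 0.210). It passed without pair 2 (0.21, edgeR adjusted p = 0.0233), the pair with its lowest log2 ratio (0.15). Sel1l, of the ER degradation complex, had 0.12 ± 0.04 and Ero1l, an ER oxidase, 0.15 ± 0.07 (edgeR adjusted p = 0.645 and 0.805). Both were higher in all 3 pairs.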

How the data were processed

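Whole-number read counts per Ensembl gene, with no normalization, were deposited by the authors for 7 libraries. The submitters' processing notes name bcl2fastq 2.17, STAR and HTSeq and the builds GRCm38 and mm10. Neither the annotation release nor the strand setting is given in the sources used here. SMART-Seq v4 and Nextera XT kits were used, per the labels' protocols. Those protocols also mention tamoxifen, virus and immunoprecipitation in cortex, which do not match the cell labels, and no vehicle is named for the controls.

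Symbols and exon lengths came from GENCODE M21, which gave 48349 of 48795 identifiers a symbol. There was no column of unmapped values (0) and no row without a gene (0). With edgeR 4.0.16 in R 4.3.3, counts were TMM-scaled, filtered with filterByExpr (minimum count 10, minimum total 15) and tested two-sided with the quasi-likelihood F test, blocked by replicate number, with Benjamini-Hochberg adjustment over 15934 genes. Control 1 entered the fit but carries no weight in the change. The block was used because same-numbered libraries deviated together from their group means (r = 0.736, 0.674 and 0.789 in pairs 2, 3 and 4, each above 0.1), each highest for its own number, and titles share a library code within a pair. PE 2 also correlated with control 1 (r = 0.666). Pair ratios are log2 CPM with a prior count of 2. Alternatives were no block, DESeq2 1.42.0, limma-voom (limma 3.58.1), RLE size factors, no filter, robust estimation, and leaving out each pair or control 1. The procedure was tested on simulated counts.

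The members and lists were chosen with earlier results of these data known. All members were named, and of the other lists each called gene and up to 3 with the smallest unadjusted p. The SE and intervals cover the spread left once replicate numbers are allowed for, and 3 counts as a floor covers counting error only.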

Additional observations from a re-analysis of the deposited data

Results flagged for a closer look

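In the 4 control libraries 2 of the 37 genes had a library far from the other 3, judged by the gap to the nearest divided by the range against Dixon's critical value at 95%. Chance gives about 1 in 20. Hspe1, the mitochondrial co-chaperonin gene, had 71.8 CPM in control 4, against 35.5, 35.6 and 41.1 CPM in the other controls (gap over range 0.847), and PE 4 was high as well at 81.5 CPM. Hspb1 had 0.283 CPM in control 4, against 0.129, 0.136 and 0.151 CPM in the others (gap over range 0.860), which rests on 5 counts against 2 in each of the others.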

How the results depend on the processing

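Of 360 member changes recomputed under 10 alternatives, 338 kept their side of the threshold and, unless 0.00 as reported, their direction. Another 3, of Xbp1, became significant and 1 of Bag3 lost the call. The other 18, in 15 genes, changed sign, and 0 of these passed the test. Without the replicate block these were Atf5 (0.06), Ddit3 (-0.10), Sdf2l1 (0.04), Hspa8 (0.05), Hsp90aa1 (0.14) and Hsp90ab1 (0.03). Leaving out a pair or control 1 gave ranges across 0 for Atf4 (-0.02 to 0.09), Ddit3 (-0.11 to 0.40), Trib3 (-0.42 to 0.09), Herpud1 (-0.02 to 0.17), Sdf2l1 (-0.05 to 0.02), Pdia6 (-0.03 to 0.05), Dnajc3 (-0.04 to 0.07), Hspa1a (-1.14 to 0.18), Hspa1b (-0.01 to 0.50), Dnajb1 (-0.09 to 0.07), Hsp90aa1 (-0.06 to 0.01) and Hspe1 (-0.01 to 0.12). Chac1, Hsph1 and Hspd1, at 0.00 as reported, were not judged for direction. Their ranges also crossed 0 (-0.18 to 0.11, -0.01 to 0.01 and -0.02 to 0.03). The cause was not tested. Within pairs, Bag3 kept its call under every alternative with the block (edgeR, DESeq2 or limma-voom adjusted p 2.52e-13 to 0.0307), the weakest being without pair 3 (log2 change 0.37). Within pairs 80 genes were higher and 6 lower. Without the replicate block 0 were higher and 0 lower, and 0 members were higher. DESeq2 gave 31 higher and 2 lower, no filter 171 and 23, and robust estimation 10 lower. Leaving out a pair or control 1 gave 48 to 245 higher and 4 to 60 lower. Without pair 2 or pair 4, 193 and 245 were higher, more than with all pairs although fewer libraries remained. A lower adjusted p in such a fit, also for Bag3, is therefore no added evidence. The count of members higher, 1 as reported, was 2 with no filter and with robust estimation, and 1 to 2 with a library or pair left out, Xbp1 being the second. Without the block the median change was 0.122 for ER genes and 0.074 for heat shock genes. With a pair or control 1 left out it was -0.065 to 0.054 for ATF4 genes and -0.011 to 0.036 for heat shock genes. The median control level of 19.9 RPKM was 45.0 with mean transcript length and 26.6 on the unshared sequence of the longest coding transcript. With a control left out it was 18.4 to 20.4. The unshared-sequence level and the Hspa1a and Hspa1b sum were chosen after seeing the data. Depth limits Hspa1a, Hspa1b, Hspb1, Trib3, Chac1 and Ddit3.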

Other observations

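Genes of the oxidative stress response driven by the factor NRF2 were read beside the other stress programs. Of 15 tested, 1 rose (Slc7a11, also listed as an ATF4 target) and 0 fell, with a median log2 change of 0.013. Over all tested genes 0.502% were called higher and 0.0377% lower, and Slc7a11 lost the call with DESeq2 (adjusted p = 0.0992). Srxn1, which encodes the antioxidant enzyme sulfiredoxin, had 681.6, 69.1 and 109.5 CPM in PE libraries 2 to 4 and 276.5, 693.5, 53.2 and 55.6 CPM in controls 1 to 4. It was several times higher in number 2 than in numbers 3 and 4 in both groups, and its log2 ratios were -0.02, 0.38 and 0.97 in pairs 2, 3 and 4 (log2 change 0.40 ± 0.12, edgeR adjusted p = 0.304). It passed without pair 2 (0.72, edgeR adjusted p = 1.83e-30) and with no filter on low counts (2.71e-14). Pair 2 was the only pair in which Srxn1 did not rise. Both settings also called more genes in all (193 and 171 higher, against 80), so these values are no stronger evidence than the fit on all pairs. The metal-binding protein gene Mt1 was higher in all 3 pairs, with a log2 change of 0.14 ± 0.05 (edgeR adjusted p = 0.661).

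Of 14 p53 genes tested, 0 were called by edgeR, DESeq2 or limma-voom. An unadjusted p under 0.05 was seen for 2, Trp53 and Plk2, against 5.76% of all tested genes. Trp53 itself had 70.6, 106.9 and 99.1 CPM in PE and 74.1, 74.3, 116.8 and 107.1 CPM in control (log2 change -0.11 ± 0.05, edgeR adjusted p = 0.836). Of the remaining genes named by the rule, Crebrf, a regulator of the unfolded protein response, had a log2 change of 0.22 ± 0.08 with a ratio of -0.04 in pair 4, and the chaperone genes Hspb6 and Hspa2 were lower in all 3 pairs with -0.23 ± 0.10 and -0.24 ± 0.10. None of these passed (edgeR adjusted p = 0.659, 0.758 and 0.791), but Crebrf did without pair 4 (0.32, edgeR adjusted p = 0.0338).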
